A study of Homo sapiens with 12 samples.

Results

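The early response of human cells to loss of SPT6 was set against their early response to loss of PAF1. For every gene, the change in mRNA between 0 and 2 h of auxin in cells with degradable SPT6 was compared with the same change in cells with degradable PAF1, and the quantity reported is the SPT6 response minus the PAF1 response. The comparison used the 8 libraries of these time points, out of 12 in the series, and was made over the human genes of the count table. All libraries came from DLD-1, a colorectal adenocarcinoma line, whose cells constitutively express OsTIR1, the plant auxin receptor. The 4 groups, of 2 libraries each, were SPT6-AID OsTIR1 cells after 2 h in 500 µM auxin, the same line at 0 h, PAF1-AID OsTIR1 cells after 2 h in 500 µM auxin, and that line at 0 h. Polyadenylated RNA was sequenced. Replicates carry the numbers 1 and 2 in SPT6-AID cells and 3 and 4 in PAF1-AID cells, and the labels do not say whether a number stands for a separate culture or whether each line is a single clone. The spread that p-values rest on is therefore that of libraries, and it may be technical.

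In an auxin-inducible degron (AID) system, auxin makes OsTIR1 attach ubiquitin to the tagged protein, which is then destroyed by the proteasome while its mRNA is not targeted. SPT6, encoded by SUPT6H, is a histone chaperone that binds elongating RNA polymerase II and helps restore nucleosomes in its wake. PAF1 is a core subunit of the PAF1 complex, which binds the elongating polymerase next to SPT6 and helps it leave the promoter-proximal pause and move through chromatin. Early after such a loss, changes are easiest to see in mRNAs that are short-lived, such as those of immediate early genes and of many zinc finger genes. Auxin was given to both lines, so an effect of auxin itself that is the same in both would cancel in the difference. No auxin-treated cells without a tag were among the samples, and protein levels were not measured here.

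The 8 libraries held 42224100 to 115904780 counts each, the deepest being SPT6-AID 2h replicate 2. Levels are given in CPM, a gene's counts scaled to a common total of human counts with TMM factors. They are relative to all human mRNA in a library, and fewer cells with a transcript and less of it per cell cannot be told apart. The epithelial markers EPCAM, CDH1, KRT8, KRT18, KRT20, CDH17 and CDX2 were present, while VIL1, LGALS4, GPA33 and CEACAM5 stayed below 1 CPM and CDX1 was at 0. Of 8 blood markers, HBB alone averaged at least 1 CPM, with 6.98 to 25.7 CPM. SUPT6H mRNA was at 520.3 and 509 CPM in SPT6-AID 2h libraries, against 496 and 501 CPM at 0 h, and at 326 and 316 CPM in PAF1-AID 2h libraries, against 261 and 287 CPM at 0 h. PAF1 mRNA was at 64.2 and 71.6 CPM in SPT6-AID 2h libraries, 69.6 and 75.8 CPM at 0 h, 129.5 and 124 CPM in PAF1-AID 2h libraries and 126 and 131 CPM at 0 h. The differences in response were -0.18 ± 0.15 for SUPT6H and -0.08 ± 0.17 for PAF1 (log2 ± SE, adjusted p = 1 for both by edgeR's quasi-likelihood test with Benjamini-Hochberg adjustment), and with fly reads as the scale the value for PAF1 was 0.014. By the CPM above, PAF1 mRNA was lower at 0 h in SPT6-AID than in PAF1-AID cells. SUPT6H went the other way and was 0.86 log2 units higher in SPT6-AID than in PAF1-AID cells at 0 h (adjusted p = 0.0334, edgeR). No gene passed at 0 h with total counts or fly reads as the scale, in the 8 libraries alone or without any 1 of the 0 h or 6 h libraries, so this call was lost in each case; 1372 genes had an unadjusted p below 0.05 in the full fit.

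In the fit without the replicate numbers, the responses of the lines differed past the threshold for few genes. The U3 small nucleolar RNA genes SNORD3A, SNORD3B-1 and SNORD3B-2 rose in SPT6-AID cells and had responses of at most 0.61 (log2) in PAF1-AID cells. The zinc finger genes ZNF551, ZNF597 and ZNF574 and the inositol trisphosphate receptor regulator ITPRIP had negative responses in SPT6-AID cells and positive ones in PAF1-AID cells. In all, 7 of 20791 tested genes passed the edgeR quasi-likelihood test of the difference at a Benjamini-Hochberg adjusted p below 0.05, which is 0.0337% of genes. SPT6-AID cells were higher relative to PAF1-AID cells for 3 (0.0144%) and lower for 4 (0.0192%). With total counts as the scale the split was 3 higher and 2 lower, and with fly reads it was 3 higher and 1 lower. An unadjusted p below 0.05 was reached by 526 genes (2.53%, edgeR), these 7 included, a share smaller than that threshold gives by chance. With the replicate number added to the model as a block, described below, 240 genes passed. A low count is not evidence of like responses. In simulated counts, drawn without pairing between libraries, this test recovered 6% of 2-fold and 68% of 4-fold differences. None of the 7 genes passed between the lines at 0 h by the same test, which is not evidence of like starting levels. By group means at 0 h, the 3 SNORD3 genes were lower in SPT6-AID than in PAF1-AID cells (SNORD3B-2, 0.282 against 0.652 CPM). The other 4 were higher (ZNF574, 35.8 against 28.5 CPM). These starting levels enter the differences in response.

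U3 is the small nucleolar RNA that pairs with the precursor of ribosomal RNA and guides its first cleavages, and its mature form has no poly(A) tail. Human U3 is encoded by near-identical copies on chromosome 17, which RNA polymerase II transcribes as independent units. SNORD3A (ENSG00000263934, GRCh38 chr17:19188016-19188714, plus strand) had 24.5 and 28.0 CPM in SPT6-AID 2h libraries and 1.37 and 1.78 CPM at 0 h, against 3.30 and 2.58 CPM in PAF1-AID 2h libraries and 2.01 and 2.13 CPM at 0 h. Both SPT6-AID 2h libraries lay far above the 6 others. The SPT6 response was 4.06 ± 0.27 and the PAF1 response 0.50 ± 0.25, a difference of 3.56 ± 0.36 (log2 ± SE, adjusted p = 0.00894, edgeR).

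SNORD3B-1 (ENSG00000265185, chr17:19061912-19062669, plus strand) had 8.18 and 7.92 CPM in SPT6-AID 2h libraries and 0.268 and 0.262 CPM at 0 h, against 0.842 and 0.629 CPM in PAF1-AID 2h libraries and 0.479 and 0.482 CPM at 0 h. The difference in response was 4.31 ± 0.36 (adjusted p = 0.00471, edgeR). SNORD3B-2 (ENSG00000262074, chr17:19063346-19064136, minus strand) lies beside it on the opposite strand, and had 6.58 and 5.78 CPM in SPT6-AID 2h libraries and 0.339 and 0.224 CPM at 0 h, against 0.674 and 0.629 CPM in PAF1-AID 2h libraries and 0.593 and 0.711 CPM at 0 h. Its difference was 4.44 ± 0.41 (adjusted p = 0.00645, edgeR), and its PAF1 response was -0.0022 ± 0.29. At both genes, too, the SPT6-AID 2h libraries stood alone and the other groups stayed below 1 CPM. At a pair of further loci large differences did not pass. Of the pair, only AC007952.4 passed with the replicate block described below. SNORD3C rose in SPT6-AID cells (3.44, adjusted p = 0.0239, edgeR) and differed by 3.70 ± 0.73 (adjusted p = 0.297) on 165 counts over the 12 libraries, and AC007952.4, a lincRNA that overlaps the U3 copy SNORD3D at chr17:19112000-19112636, differed by 3.37 ± 0.56 (adjusted p = 0.148, and 0.000225 with the block). AC007952.4 had 8.20 and 7.87 CPM in SPT6-AID 2h libraries and 0.375 and 0.336 CPM at 0 h, against 1.16 and 0.986 CPM in PAF1-AID 2h libraries and 0.730 and 0.252 CPM at 0 h. Its responses were 4.49 in SPT6-AID and 1.12 in PAF1-AID cells, and with the block the latter passed too (adjusted p = 0.0198, edgeR). At 6 h SNORD3A stood at 28.6 and 37.6 CPM in SPT6-AID cells and at 3.25 and 2.18 CPM in PAF1-AID cells.

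Reads from U3 copies this alike can be assigned to any of them, so the values are best read as those of the group. Of 6 tested box C/D small nucleolar RNA genes 3 passed, against 3 higher calls among all 20791 genes. The other 3 did not, SNORD17 (1.12 ± 0.59) and SNORD15B (-1.07 ± 1.36) with SNORD3C. The 22 tested host genes of small nucleolar RNAs held 0 calls for the difference with or without the block. With PAF1-AID 2h replicate 4 left out, the U3 calls were lost, at adjusted p of 0.0501 for SNORD3B-1, 0.0858 for SNORD3B-2 and 0.0965 for SNORD3A (edgeR), while the differences stayed at 4.10, 4.38 and 3.38. SNORD3A also missed the threshold without SPT6-AID 0h replicate 1, PAF1-AID 0h replicate 3 or PAF1-AID 0h replicate 4.

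**Figure D1:**
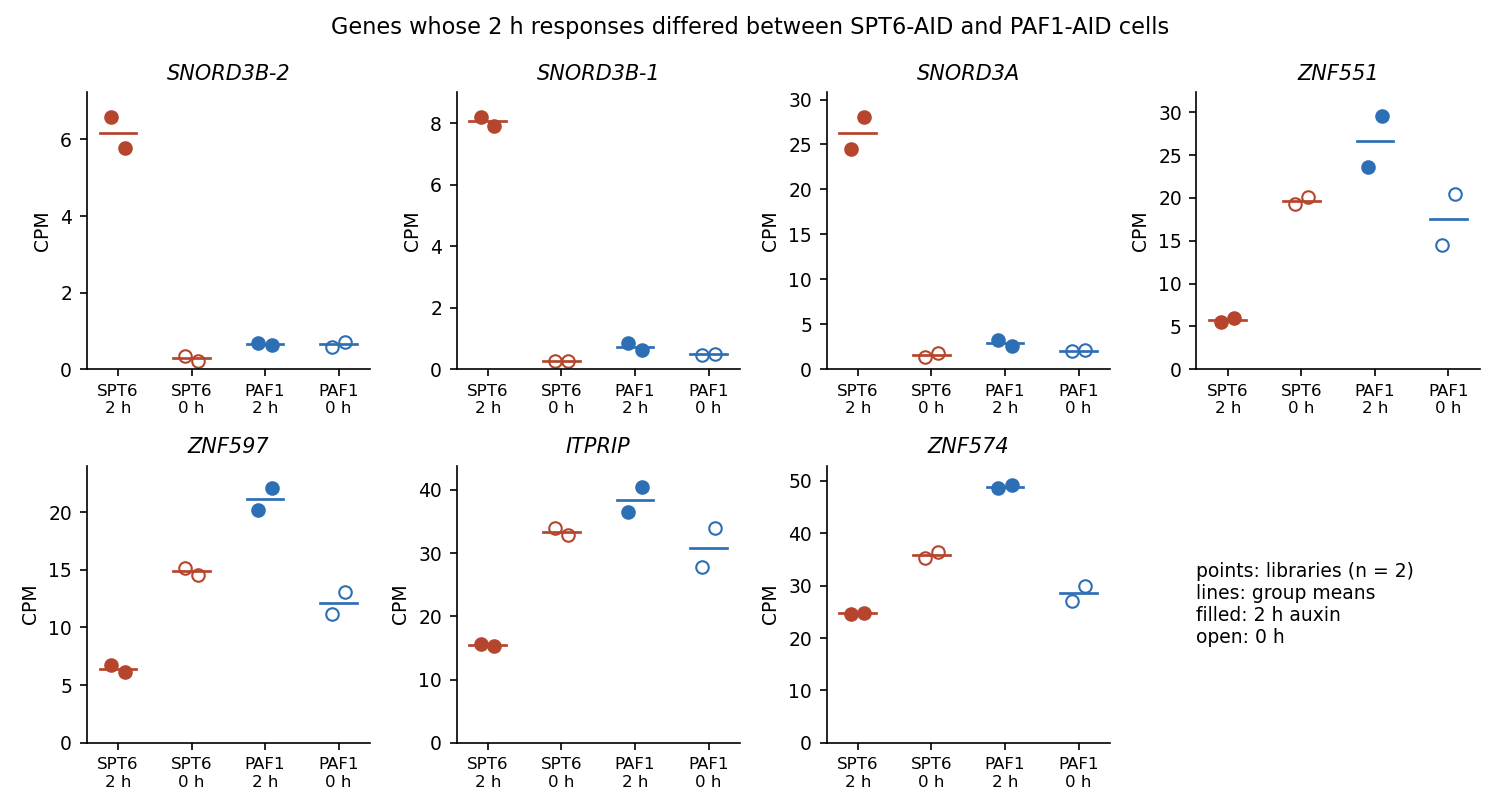
CPM (y axes, linear, from 0) in each of the 8 libraries for the 7 genes whose difference in response passed the test, with groups in columns. Points are libraries (filled, 2 h of auxin; open, 0 h) and lines are group means (n = 2). For the SNORD3 genes the SPT6-AID 2h libraries sit alone above the rest, and for the other 4 genes they sit lowest.

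At the 4 genes on the other side, both SPT6-AID 2h libraries were the lowest of the 8 and both PAF1-AID 2h libraries the highest, with the 0 h libraries of both lines in between. ZNF551 (ENSG00000204519, chr19:57681969-57717301, plus strand), a KRAB-type zinc finger gene, had 5.51 and 5.94 CPM in SPT6-AID 2h libraries and 19.3 and 20.1 CPM at 0 h, against 23.7 and 29.6 CPM in PAF1-AID 2h libraries and 14.5 and 20.5 CPM at 0 h. It fell by 1.78 ± 0.20 in SPT6-AID cells (adjusted p = 0.00955, edgeR) and had a PAF1 response of 0.60 ± 0.23, which did not pass, and the difference was -2.39 ± 0.31 (adjusted p = 0.0443, edgeR). ZNF597 (ENSG00000167981, chr16:3432422-3443553, minus strand), a zinc finger gene, had 6.70 and 6.11 CPM in SPT6-AID 2h libraries and 15.2 and 14.5 CPM at 0 h, against 20.1 and 22.1 CPM in PAF1-AID 2h libraries and 11.2 and 13.1 CPM at 0 h. The difference was -2.01 ± 0.23 (adjusted p = 0.0181, edgeR), made up of a response of -1.21 in SPT6-AID cells and of 0.80 in PAF1-AID cells. NAA60, which starts within the ZNF597 promoter window on the opposite strand, differed by -0.16 (adjusted p = 1). AC025283.3, which overlaps ZNF597 on the opposite strand, had 163 counts over the 12 libraries. Its responses were 0.04 in SPT6-AID and -1.29 in PAF1-AID cells, and the difference of 1.33 did not pass.

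ITPRIP (ENSG00000148841, chr10:104309698-104338448, minus strand) encodes a protein that raises the sensitivity of the inositol trisphosphate receptor to calcium. It had 15.7 and 15.2 CPM in SPT6-AID 2h libraries and 34.0 and 32.9 CPM at 0 h, against 36.4 and 40.5 CPM in PAF1-AID 2h libraries and 27.8 and 33.9 CPM at 0 h. The SPT6-AID 2h libraries lay below all others, and the PAF1-AID 2h libraries overlapped neither 0 h group. The difference was -1.43 ± 0.19 (adjusted p = 0.0443, edgeR). ZNF574 (ENSG00000105732, chr19:42068477-42081549, plus strand) had 24.7 and 24.8 CPM in SPT6-AID 2h libraries and 35.3 and 36.3 CPM at 0 h, against 48.6 and 49.2 CPM in PAF1-AID 2h libraries and 27.1 and 29.96 CPM at 0 h. Here the PAF1-AID side passed on its own (0.78 ± 0.10, adjusted p = 0.0427, edgeR) and the SPT6-AID side did not (-0.53 ± 0.10), and the difference was -1.31 ± 0.17 (adjusted p = 0.0443, edgeR). ZNF574 overlaps GRIK5 on the opposite strand, which had 2382 counts over the 12 libraries and a difference of 0.10. At 6 h the SPT6-AID libraries held 15.8 and 21.9 CPM of ZNF551, 15.7 and 14.6 CPM of ZNF597, 51.1 and 49.5 CPM of ITPRIP and 57.7 and 53.1 CPM of ZNF574, so that each was above its 2 h level. PAF1-AID libraries at 6 h held 28.6 and 34.9 CPM of ZNF551, 30.6 and 25.8 CPM of ZNF597, 56.9 and 54.7 CPM of ITPRIP and 61.1 and 56.6 CPM of ZNF574, and for ZNF574 the lines overlapped.

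Each of these 4 calls rested on every one of the 8 libraries: leaving out any 1 of them put the gene above the threshold, at adjusted p up to 0.324 for ZNF551 and ZNF574, 0.174 for ZNF597 and 0.352 for ITPRIP (edgeR). The differences themselves ranged from -2.66 to -2.16 for ZNF551, from -2.14 to -1.91 for ZNF597, from -1.59 to -1.29 for ITPRIP and from -1.39 to -1.24 for ZNF574. Leaving out a 6 h library, which enters only the estimate of spread, also lost ITPRIP in each case, and lost ZNF551 and ZNF574 without PAF1-AID 6h replicate 3 or 4.

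The promoter windows of these 4 genes are shown because the genes moved together. Each runs from 250 bases before to 50 bases after the annotated start, is taken from RefSeq (GRCh38.p14) and is written 5′ to 3′ on the gene's strand, with capitals marking CCAAT boxes (CCAAT, or ATTGG for the other strand). For ITPRIP and ZNF574, which have 2 windows each, the first is shown for ITPRIP and the one with matches for ZNF574.
ZNF551 (chr19:57681727-57682026, plus strand): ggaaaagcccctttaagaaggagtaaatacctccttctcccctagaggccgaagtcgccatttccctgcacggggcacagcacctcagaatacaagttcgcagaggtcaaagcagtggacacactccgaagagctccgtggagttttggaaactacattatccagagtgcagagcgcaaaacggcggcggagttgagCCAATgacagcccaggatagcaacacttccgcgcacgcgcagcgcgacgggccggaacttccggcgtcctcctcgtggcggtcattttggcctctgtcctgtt
ZNF597 (chr16:3443455-3443754, minus strand): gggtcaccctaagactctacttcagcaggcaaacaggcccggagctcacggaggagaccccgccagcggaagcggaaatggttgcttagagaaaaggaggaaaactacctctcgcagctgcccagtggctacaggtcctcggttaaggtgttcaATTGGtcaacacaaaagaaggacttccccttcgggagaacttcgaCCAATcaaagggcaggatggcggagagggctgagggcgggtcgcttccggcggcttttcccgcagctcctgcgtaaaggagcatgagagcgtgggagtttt
ZNF574 (chr19:42075916-42076215, plus strand): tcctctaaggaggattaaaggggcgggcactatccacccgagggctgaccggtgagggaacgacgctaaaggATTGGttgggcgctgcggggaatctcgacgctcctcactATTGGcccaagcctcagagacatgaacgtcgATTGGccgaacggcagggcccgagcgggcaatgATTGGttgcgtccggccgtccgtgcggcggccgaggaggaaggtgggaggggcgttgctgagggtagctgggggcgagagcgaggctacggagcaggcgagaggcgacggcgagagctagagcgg
ITPRIP (chr10:104338416-104338715, minus strand): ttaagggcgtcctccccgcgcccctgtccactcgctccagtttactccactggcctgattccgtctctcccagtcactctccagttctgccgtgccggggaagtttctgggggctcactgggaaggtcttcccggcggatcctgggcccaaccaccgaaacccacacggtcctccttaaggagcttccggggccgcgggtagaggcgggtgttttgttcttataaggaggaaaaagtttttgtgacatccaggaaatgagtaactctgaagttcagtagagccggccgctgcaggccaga
Counted in bases from the start, the boxes begin at -53 in ZNF551, at -96 and -51 in ZNF597, and at -178, -139, -108 and -75 in ZNF574, and neither ITPRIP window holds one. ZNF551 also has an ETS site (CCGGAAGT on the other strand) beginning at 4. Across 35116 promoter windows of the same length, 34.6% held a CCAAT box, 4.14% an ETS site, 1.85% a CRE (TGACGTCA), 7.71% an AP-1 site (TGANTCA) and 1.29% a CArG box, all searched on both strands. Among the 12 genes that the naming rule took on the lower side, these 4 included, 9 had a window, and 6 of these held a CCAAT box, 1 an ETS site, 1 an AP-1 site and 0 a CRE or a CArG box. A match is a description of the sequence only, and genes with several windows had more chances of one.

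Below the threshold, the genes with the smallest p on each side were of different kinds. On the higher side stood FOS, the immediate early AP-1 subunit, with 66.2 and 66.1 CPM in SPT6-AID 2h libraries and 7.66 and 6.95 CPM at 0 h, against 18.1 and 15.2 CPM in PAF1-AID 2h libraries and 4.70 and 5.28 CPM at 0 h. FOS rose in both lines, by 3.18 ± 0.22 in SPT6-AID and 1.74 ± 0.22 in PAF1-AID cells (adjusted p = 0.0002 and 0.0291, edgeR). Its difference of 1.44 ± 0.30 passed with the block and not without it (adjusted p = 0.000803 with and 0.327 without, edgeR). A 5.8S ribosomal RNA gene, one of many near-identical copies, had 70.4 and 54.0 CPM in SPT6-AID 2h libraries and 7.91 and 7.06 CPM at 0 h, against 24.1 and 19.0 CPM in PAF1-AID 2h libraries and 6.44 and 5.96 CPM at 0 h. It too rose in both lines, and the difference was 1.26 ± 0.30 (adjusted p = 0.548, and 0.00106 with the block).

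PPP1R10 (PNUTS), a regulatory subunit of protein phosphatase 1 that acts in transcription termination, came to the same side by another route. It had 45.4 and 57.9 CPM in SPT6-AID 2h libraries and 93.1 and 103 CPM at 0 h, against 19.5 and 23.2 CPM in PAF1-AID 2h libraries and 100.2 and 92.1 CPM at 0 h. Both 2 h groups lay below both 0 h groups, PAF1-AID lowest. PPP1R10 fell by 2.17 ± 0.21 in PAF1-AID cells (adjusted p = 0.0076, edgeR) and had a response of -0.92 ± 0.19 in SPT6-AID cells. Its difference of 1.25 ± 0.28 passed with the block and not without it (adjusted p = 0.00236 with and 0.494 without, edgeR). The non-coding AC006449.6, AC009831.1, FLJ37453 and AL024508.1 also stood on the higher side, with differences of 1.81, 1.76, 1.35 and 1.01.

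On the lower side, 8 genes followed the 4 that passed, with adjusted p from 0.055 to 0.148 (edgeR). All those named here passed with the block, for example MCL1 at an adjusted p of 6.76e-05, DUSP5 at 3.97e-05, FEM1C at 1.68e-05 and ZNF92, SDE2 and ABHD17B at 9.78e-05 each. MCL1, an anti-apoptotic BCL2 family member with a short-lived mRNA, had 92.0 and 90.9 CPM in SPT6-AID 2h libraries and 214 and 190.3 CPM at 0 h, against 274 and 297 CPM in PAF1-AID 2h libraries and 218 and 228 CPM at 0 h, a difference of -1.50 ± 0.25. DUSP5, a nuclear phosphatase that inactivates ERK, had 41.2 and 45.8 CPM in SPT6-AID 2h libraries and 85.7 and 84.9 CPM at 0 h, against 101 and 91.8 CPM in PAF1-AID 2h libraries and 76.8 and 78.3 CPM at 0 h, a difference of -1.29 ± 0.18. FEM1C, a substrate receptor of a CUL2 ubiquitin ligase, had 23.0 and 26.2 CPM in SPT6-AID 2h libraries and 47.4 and 54.6 CPM at 0 h, against 60.2 and 61.2 CPM in PAF1-AID 2h libraries and 48.2 and 45.6 CPM at 0 h, a difference of -1.42 ± 0.20. In all 3 the SPT6-AID 2h libraries were lowest and the PAF1-AID 2h libraries highest, without overlap. The others reported here were C15orf39 (-1.41), the zinc finger gene ZNF92 (-1.26), SDE2, a replication and splicing factor (-1.25), and ABHD17B, a depalmitoylating enzyme (-1.36). For ZNF92 and ABHD17B nearly all of the difference lay on the SPT6-AID side, with PAF1 responses of 0.10 and 0.06.

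**Figure D2:**
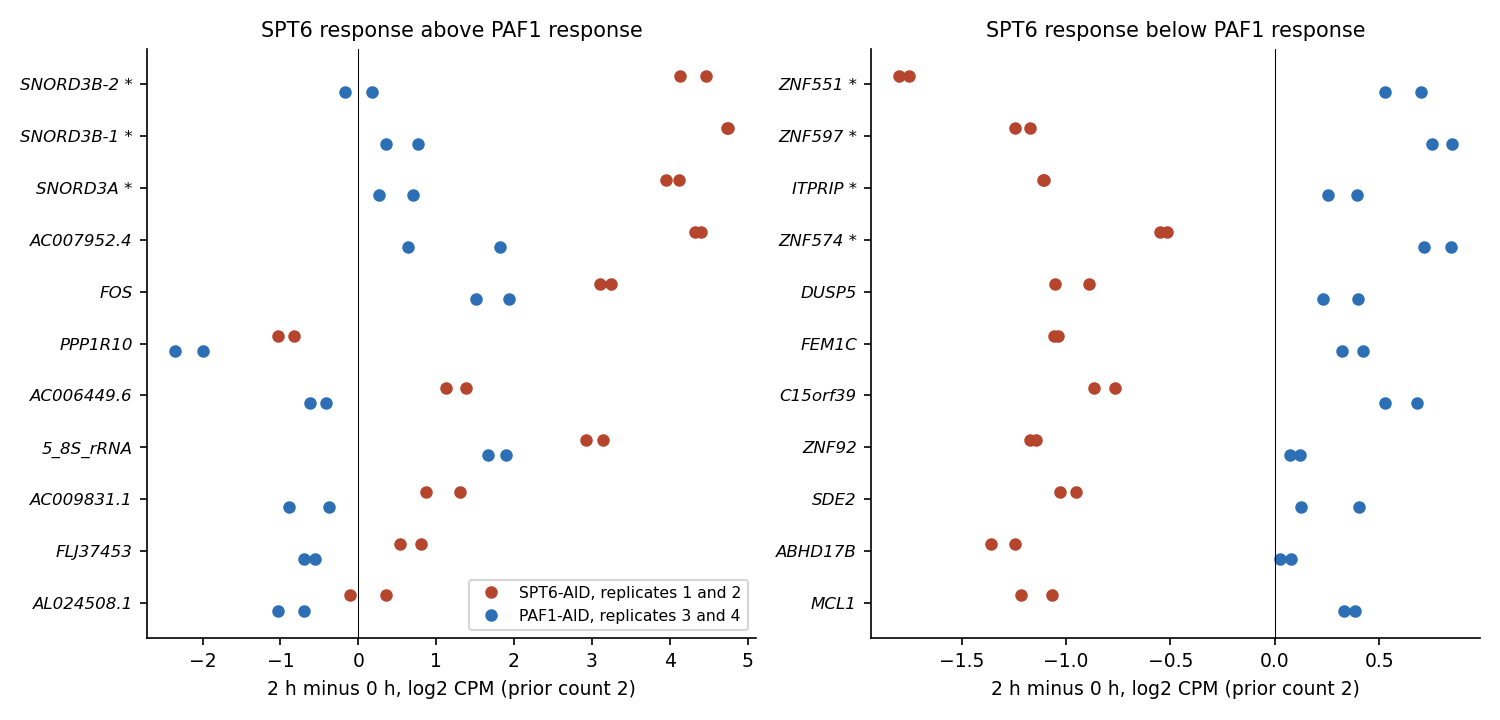
Change from 0 to 2 h (log2 CPM, prior count 2, x axis) for libraries of the same replicate number, for the genes named on each side; asterisks mark genes past the threshold. SPT6-AID changes (upper points of each gene) lie right of the PAF1-AID ones (lower points) in the left panel and left of them in the right panel, as the choice of the genes required; on the lower side the SPT6-AID pairs shown lie below 0 and the PAF1-AID pairs above it.

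Libraries of one line with the same number deviated together, and adding the replicate number to the model as a block changed the count of calls by far more than 1.5 times. With the block, 240 genes (1.15%) passed edgeR's quasi-likelihood test of the difference, 19 higher (0.0914%) and 221 lower (1.06%), and all 7 genes above were among them. With the block and fly reads as the scale there were 13, of which 5 were higher and 8 lower, and with total counts 120, of which 10 were higher and 110 lower. Single libraries moved it: leaving out PAF1-AID 2h replicate 4 gave 84 genes and replicate 3 of that group 140. Leaving out SPT6-AID 2h replicate 1 gave 121 and replicate 2 gave 153, SPT6-AID 0h replicate 1 gave 142 and replicate 2 gave 134, and SPT6-AID 6h replicate 1 gave 368 and replicate 2 gave 366. The blocked values below are read with that range in mind.

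The 221 lower genes of the blocked fit fell into patterns by line. For 150 of them the SPT6 response was negative and the PAF1 response positive, for 59 both were negative and for 12 both were positive, and the median response was -0.67 in SPT6-AID and 0.22 in PAF1-AID cells. The 221 were chosen for an SPT6 response below the PAF1 response. That choice alone bars the reverse pair of signs and sets the medians apart. Of these genes 215 were protein-coding. In the same model 1613 genes (7.76%) passed in SPT6-AID cells, 266 higher (1.28%) and 1347 lower (6.48%), and 1452 (6.98%) in PAF1-AID cells, 480 higher (2.31%) and 972 lower (4.68%). Both lines shared 693 of these, and 36 of them moved in opposite directions. All 36 fell in SPT6-AID and rose in PAF1-AID cells, and 0 went the other way. ZNF551, ZNF597, ZNF574, DUSP5, FEM1C and C15orf39 are among the 36. Others, picked here after their values were seen, are SPRY4 (SPT6 response -0.86, PAF1 response 0.71), the Mediator subunit MED26 (-0.71, 0.46), the co-chaperone DNAJB1 (-0.44, 0.45), the pro-apoptotic BCL2L11 (-0.50, 0.56), the interferon regulatory factor IRF1 (-0.46, 0.37) and ID2, an inhibitor of basic helix-loop-helix factors (-0.46, 0.47). Without the block, 114 genes (0.548%) passed in SPT6-AID cells, 18 of them higher (0.0866%), and 31 (0.149%) in PAF1-AID cells, 14 of them higher (0.0673%). Of these, 8 genes passed in both lines and all 8 had the same sign in each: CYP1A1, FOS, the 5.8S gene and AL133477.1 were higher at 2 h in both, and DDIT3, ZFP36L2, PCF11 and ZNF689 were lower in both.

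**Figure D3:**
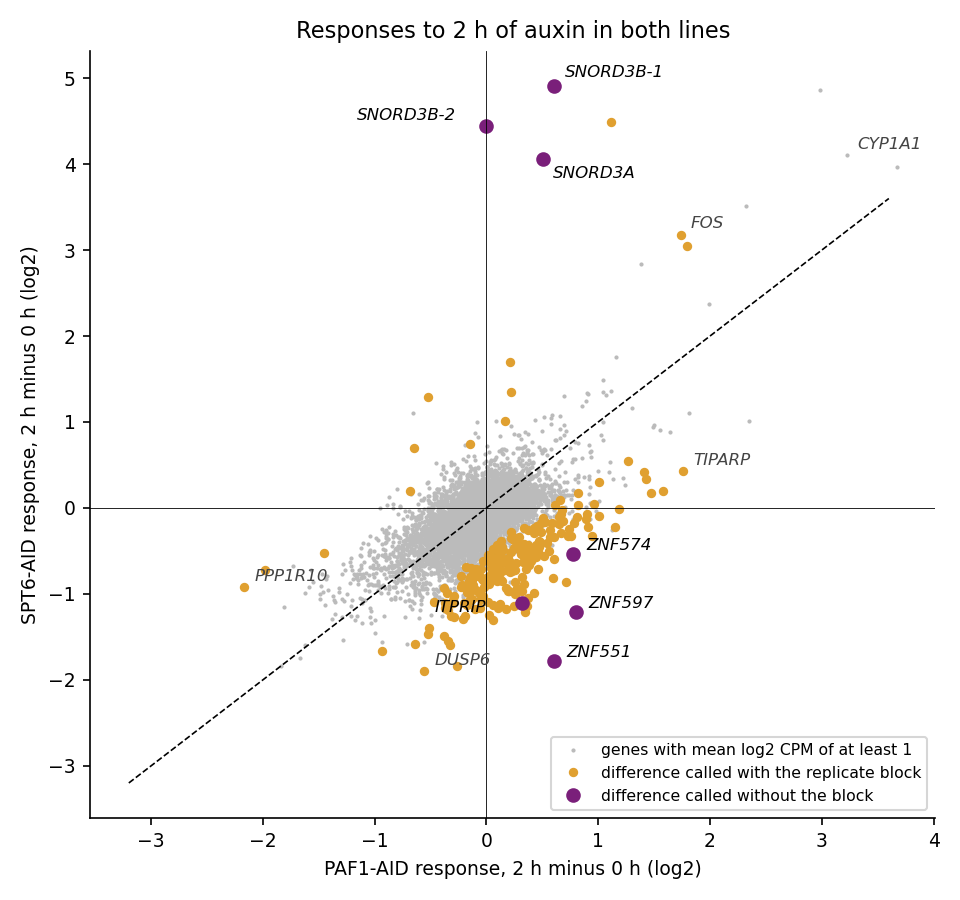
SPT6-AID response (y axis) against PAF1-AID response (x axis), both 2 h minus 0 h on the log2 scale, for the 13430 genes above the level limit (mean log2 CPM of 1); the dashed line marks equal responses. Purple points passed the test of the difference, orange points passed with the replicate block only, and most orange points lie in the lower right, around a negative SPT6-AID and a positive PAF1-AID response. Both sets were chosen for a difference in response, so they lie off the dashed line by that choice.

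Over the 13430 genes whose mean log2 CPM reached 1, the responses of the lines, which share no libraries, had a Pearson correlation of 0.61 and a Spearman correlation of 0.55, and 71.3% of genes had the same sign in both. Genes are not independent replicates, and auxin was given to both lines. Of the 96 genes that fell in SPT6-AID cells (0.462% of those tested), 77 had a negative PAF1 response. Over the 96 the median was -1.04 in SPT6-AID and -0.38 in PAF1-AID cells. These 96 were chosen for their SPT6 response, and such a choice tends to make it the larger. Of the 17 that fell in PAF1-AID cells (0.0818%), all 17 had a negative SPT6 response, with medians of -0.87 in SPT6-AID and -1.27 in PAF1-AID cells. The 17 were likewise chosen for their PAF1 response, which tends to make that one the larger. How much of either gap the choice accounts for was not tested. The 2 lines compared at 2 h alone differed in 96 genes (0.462%), 21 higher (0.101%) and 75 lower (0.361%) in SPT6-AID cells, and at 0 h in 7 (0.0337%), 6 higher (0.0289%) and 1 lower (0.00481%).

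ERK feedback genes encode phosphatases and adaptors that the kinase ERK switches on to limit its own activity. Of 19 tested, 0 passed without the block and 7 were lower with it (36.8%, against 1.06% of all genes), and 17 of 19 differences were negative, with a median of -0.30 against -0.01 over all genes. The list median was -0.45 in SPT6-AID and 0.08 in PAF1-AID cells. DUSP6, the cytoplasmic ERK phosphatase, had 119 and 131 CPM in SPT6-AID 2h libraries and 464 and 469 CPM at 0 h, against 179 and 226 CPM in PAF1-AID 2h libraries and 266 and 332 CPM at 0 h. With the block it fell in both lines, by 1.89 in SPT6-AID and 0.56 in PAF1-AID cells (difference -1.33 ± 0.24). Its mean at 0 h was higher in SPT6-AID than in PAF1-AID cells (466 against 299 CPM), and this gap enters the difference. At 6 h the means were 140 and 152 CPM. SPRY4, a Sprouty inhibitor of receptor tyrosine kinase signalling, had 13.4 and 11.2 CPM in SPT6-AID 2h libraries and 24.7 and 19.995 CPM at 0 h, against 28.9 and 30.2 CPM in PAF1-AID 2h libraries and 19.2 and 16.996 CPM at 0 h (difference -1.57 ± 0.27). The remaining calls were DUSP5, DUSP10 (-1.39), DUSP2 (-0.92), DUSP7 (-0.62) and the EGFR inhibitor ERRFI1 (-0.63).

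Of 26 KLF, IER, GADD45 and related early response genes, 6 were lower with the block (23.1%, against 1.06% of all genes), with a median difference of -0.23. KLF10, a TGF-beta inducible repressor, had 52.1 and 42.5 CPM in SPT6-AID 2h libraries and 54.2 and 49.3 CPM at 0 h, against 80.4 and 78.9 CPM in PAF1-AID 2h libraries and 42.8 and 43.0 CPM at 0 h. PPP1R15A (GADD34), which recruits a phosphatase to eIF2 alpha, had 93.5 and 87.7 CPM in SPT6-AID 2h libraries and 83.6 and 92.4 CPM at 0 h, against 179 and 209 CPM in PAF1-AID 2h libraries and 90.2 and 109 CPM at 0 h. At both genes the PAF1-AID 2h libraries stood above the 6 others, and the differences were -1.02 ± 0.19 and -0.92 ± 0.19. BTG2, an anti-proliferative gene, showed the other form, with 8.61 and 8.99 CPM in SPT6-AID 2h libraries, 16.8 and 15.04 CPM at 0 h, 16.0 and 17.7 CPM in PAF1-AID 2h libraries and 13.5 and 17.3 CPM at 0 h. Of 17 AP-1 and EGR genes, 1 was higher with the block (FOS; 5.88%, against 0.0914% of all genes) and 1 lower (5.88%, against 1.06%; MAFF, -0.83 ± 0.24), and JUN had a difference of -0.57 ± 0.19 that passed in neither model.

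Stress genes of the ATF4 and unfolded protein response held 4 lower calls among 19 with the block (21.1%, against 1.06% of all genes) and a median of -0.15, against -0.01 over all genes. DNAJB9, a chaperone of the endoplasmic reticulum, differed by -1.12 ± 0.26, SESN2, which restrains mTORC1, by -1.06 ± 0.51, and the transcription factor CEBPG by -0.53 ± 0.24. SESN2 varied between libraries of a group, with 28.1 and 45.9 CPM in SPT6-AID 2h libraries and 39.3 and 53.7 CPM at 0 h, against 94.2 and 56.9 CPM in PAF1-AID 2h libraries and 54.5 and 36.8 CPM at 0 h, and its groups overlapped. Among 10 targets of the aryl hydrocarbon receptor, a sensor of small aromatic ligands, only TIPARP was called with the block. It was lower (10% of the list, against 1.06% of all genes). TIPARP, a mono-ADP-ribosyltransferase, had 57.3 and 42.1 CPM in SPT6-AID 2h libraries and 33.6 and 40.2 CPM at 0 h, against 115 and 132 CPM in PAF1-AID 2h libraries and 31.4 and 41.7 CPM at 0 h (difference -1.33 ± 0.30). CYP1A1, the cytochrome P450 most used as a readout of the receptor, rose in both lines, at 42.0 and 27.1 CPM in SPT6-AID 2h libraries, against 2.14 and 1.85 CPM at 0 h, and at 35.0 and 50.1 CPM in PAF1-AID 2h libraries, against 3.42 and 5.67 CPM at 0 h. Its difference was 0.88 ± 0.39 and was called in neither model.

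**Figure D4:**
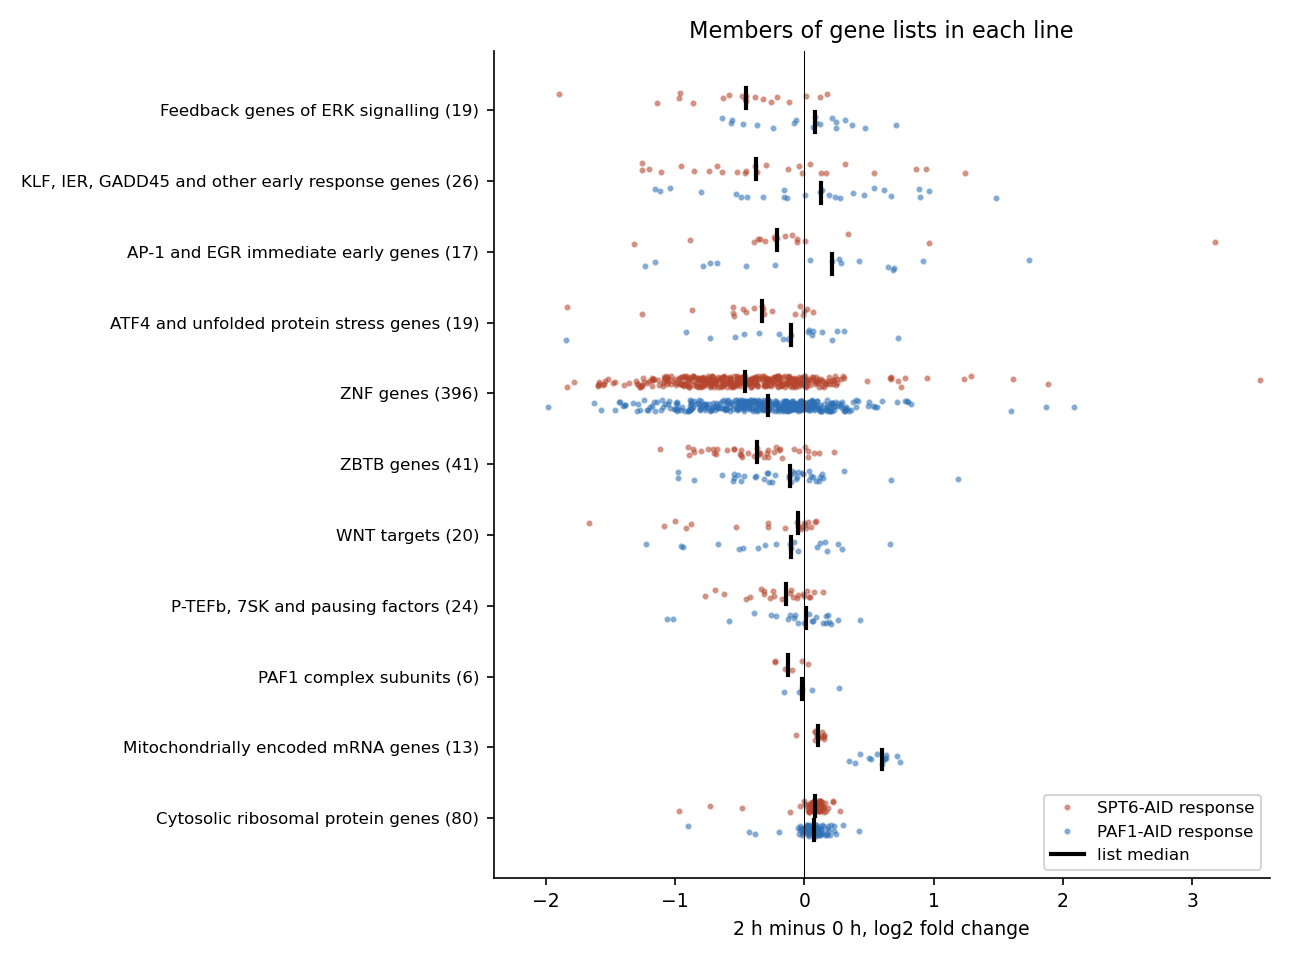
Change from 0 to 2 h (log2, x axis) of every tested member (dots) of 11 gene lists, with the number of members in brackets, in SPT6-AID (upper row of each list) and PAF1-AID cells (lower row); black bars are list medians. In ERK feedback genes the medians are -0.45 and 0.08, in ribosomal protein genes 0.08 in both lines.

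ZNF genes encode zinc finger proteins, many of them KRAB repressors, and made up 34 of the 221 lower genes of the blocked fit. Of 396 tested ZNF genes 3 passed on the lower side without the block, against 4 of all 20791 genes. With the block 34 were lower (8.59%, against 1.06% of all genes) and 1 higher (0.253%, against 0.0914%). The median difference was only -0.09, and it was 0.004 with fly reads as the scale. In both lines the family median was negative, at -0.45 in SPT6-AID and -0.28 in PAF1-AID cells. ZNF genes with lower calls differed in form: ZNF12 (SPT6 response -1.13, PAF1 response 0.06) and ZNF281 (-1.18, 0.18) had nearly all of it in SPT6-AID cells, and ZNF443 (-1.84, -0.26) and ZNF526 (-1.59, -0.64) were negative in both, these being picked after their values were seen. ZNF616 was the single higher one, at -0.72 in SPT6-AID and -1.98 in PAF1-AID cells. The related ZBTB genes had 4 lower calls of 41 with the block (9.76%), ZBTB39 (-1.24 ± 0.34) and ZBTB43 (-0.73 ± 0.26) among them, and a median of -0.21.

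The 6 PAF1 complex subunits held 0 calls in either model, the largest difference being that of CTR9 (-0.28 ± 0.18). Of 24 genes for P-TEFb, the 7SK complex and pausing factors 1 was lower with the block (4.17%, against 1.06% of all genes). It was CCNT2, a cyclin T of P-TEFb (-0.66 ± 0.20), while EAF1 (-0.54) and CCNT1 (-0.51) did not pass. Of 13 SPT6 partners and elongation histone chaperones 1 was lower (7.69%, against the same 1.06%), SPTY2D1, a histone chaperone (-0.76 ± 0.19). Of 23 genes for cleavage and termination factors PPP1R10 was the single call, on the higher side (4.35%, against 0.0914% of all genes). Single calls say little about lists of this size. Of 20 general transcription factor genes 0 were called, GTF2E1 having responses of -0.86 in SPT6-AID and -1.55 in PAF1-AID cells. NXF1, the main mRNA export receptor, had 96.9 and 97.6 CPM in SPT6-AID 2h libraries and 84.5 and 87.6 CPM at 0 h, against 144 and 157 CPM in PAF1-AID 2h libraries and 86.4 and 85.2 CPM at 0 h. It rose in PAF1-AID cells (0.81, adjusted p = 0.0392, edgeR), and the difference of -0.64 ± 0.17 was called with the block and not without it.

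WNT targets had 2 lower calls of 20 with the block (10%, against 1.06% of all genes), AXIN2, a feedback inhibitor of the pathway (-0.73 ± 0.28), and BAMBI (-0.81 ± 0.33), with a median of -0.09 that was 0.02 with fly reads as the scale. AXIN2 had 121 and 101 CPM in SPT6-AID 2h libraries and 387 and 314 CPM at 0 h, against 174 and 208 CPM in PAF1-AID 2h libraries and 365 and 366 CPM at 0 h, so that both 2 h groups lay below both 0 h groups and SPT6-AID lowest. Of 15 intestinal epithelial genes 2 were lower with the block (13.3%, against the same 1.06%), the transcription factor CDX2 (-0.70 ± 0.26) and the claudin CLDN4 (-0.60 ± 0.22). Single lower calls with the block, which say little about lists of this size, came from 16 heat shock genes (DNAJB1, -0.89), 16 NF-kB targets (NFKBIA, -0.92), 14 YAP targets (AMOTL2, -0.85), 22 mitosis genes (PLK2, -0.80), 25 ribosome biogenesis genes and MYC (MYC itself, -1.11) and 29 microRNA host genes (MIR22HG, -0.88). These lower calls were 3.45 to 7.14% of their lists, against the same 1.06%. Single higher calls came from 51 histone genes (H2BC9, 1.48 ± 0.65, 1.96% of the list) and 334 LINC genes (LINC00899, 0.84 ± 0.30, 0.299%), against 0.0914% of all genes. The 20 p53 targets, 20 recombination repair genes, 16 SR protein and kinase genes and 80 ribosomal protein genes held 0 calls in either model, with medians of -0.17, 0.01, -0.13 and 0.01.

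The 13 mitochondrially encoded mRNA genes, which are not transcribed by RNA polymerase II, all had negative differences, from -0.27 for MT-CO1 to -0.70 for MT-ATP8, and 0 were called in either model. Their median response was 0.11 in SPT6-AID and 0.60 in PAF1-AID cells. Mitochondrially encoded genes of every kind, not these 13 alone, made up 2.56 and 2.68% of human counts in SPT6-AID 2h libraries. SPT6-AID 0h libraries held 2.39 and 2.45%. In PAF1-AID cells this share came to 2.65 and 2.54% after 2 h of auxin, but only 1.63 and 2.16% before it. By this share of all mitochondrial genes, the PAF1-AID 0h libraries, replicate 3 above all, were the ones apart. These libraries enter every PAF1 response, and the part of this share in the gene-level differences was not tested.

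Few exons were common among the called genes of either side and of either line. Among 11174 protein-coding genes whose mean log2 CPM reached 1, the share called lower with the block was 6.84% of genes with 1 exon, 7.62% with 2 or 3 exons, 3.67% with 4 to 6, 1.01% with 7 to 12 and 0.392% with more. The 215 called genes had a median of 4 exons and a gene length of 17576 bases, against 10 exons and 33534.5 bases in all 11174. The 8 protein-coding genes called higher had medians of 4.5 exons and 6369 bases, and the genes that fell without the block had a median of 5 exons in SPT6-AID and in PAF1-AID cells. By gene length the share was 3.11% under 5 kb, 3.23% from 10 to 20 kb and 0.462% from 100 to 400 kb, and 0 of 202 genes of 400 kb and over were called. Median responses moved less: genes with 2 or 3 exons had -0.17 in SPT6-AID and -0.07 in PAF1-AID cells. By level at 0 h, the share was 0.42% under 5 CPM, 2.64% from 20 to 50 CPM and 1.26% over 200 CPM.

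**Figure D5:**
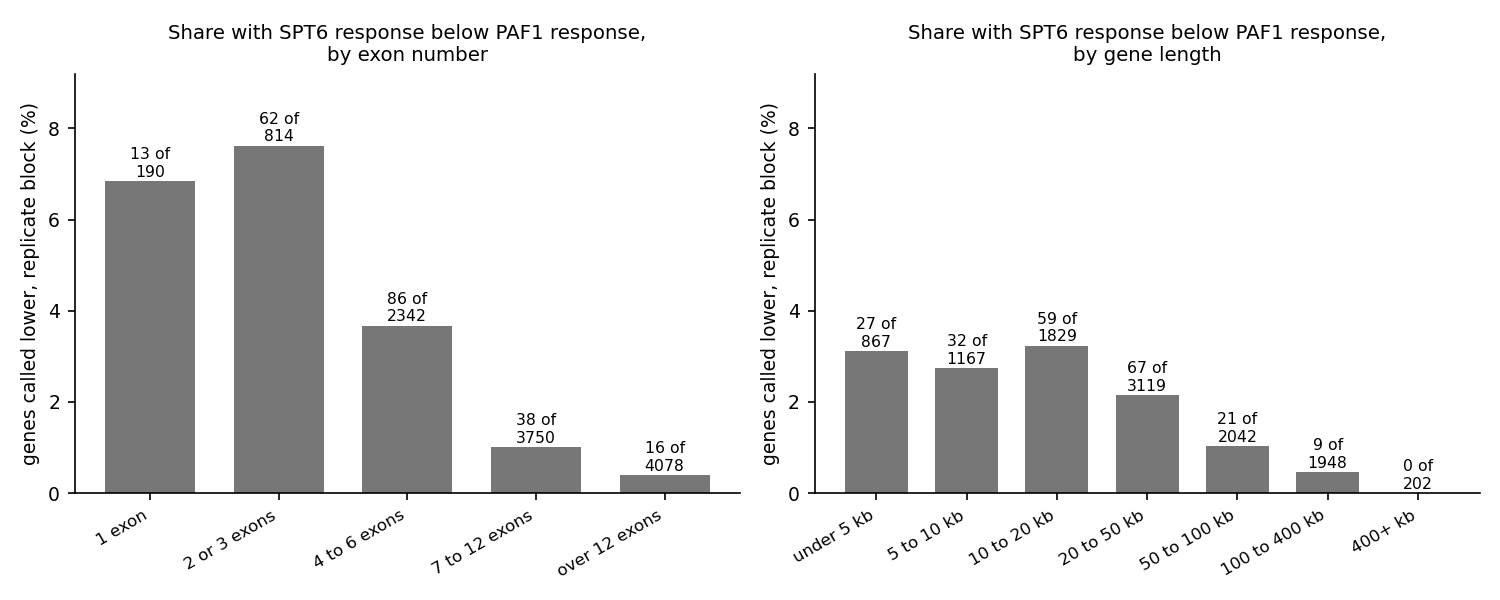
Share of protein-coding genes called lower for the difference with the replicate block (bars, percent, from 0), by the largest number of exons in a transcript (left) and by gene length (right), with called and total genes over each bar. The share is 7.62% at 2 or 3 exons and 0.392% over 12 exons.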

How the data were processed

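The series measured polyadenylated RNA in 12 libraries, deposited by the authors as one table of raw counts of human and fly genes, not normalized. Per the submitters' processing notes, the tools were featureCounts 2.0.0, STAR 2.7.5 and cutadapt 1.14, and the genome builds GRCh38 and BDGP6. The annotation release, the strand setting of the counting and the amount of fly material are not given in the sources used here, so counts of antisense, overlapping and near-identical genes are uncertain. Gene lengths in bases are those the authors deposited in the same table, while exon numbers, types and positions come from GENCODE 29, so the lengths can differ slightly from the printed spans.

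The 60666 human rows were filtered with filterByExpr, which left 20791 genes (20518 with a GENCODE entry), and scaled by TMM. edgeR 4.0.16 (R 4.3.3) fitted 6 group means over all 12 libraries, with 6 residual degrees of freedom, and the difference of responses was tested by quasi-likelihood with Benjamini-Hochberg adjustment over all genes and a threshold of 0.05. A standard error is the log2 value over the square root of F. The step without the block was checked on simulated counts, with 50 genes changed at each fold. It recovered 2% of differences of 1.5-fold, 6% of 2-fold, 68% of 4-fold and 86% of 8-fold. Of its 88 calls, 7 were false. The simulated libraries were drawn independently, so they lack the shared deviations of same-numbered libraries, and only genes averaging above 1 CPM were changed. These shares may therefore not hold for the data. Named genes are, on each side, up to 12 genes that passed (with mean log2 CPM reaching 1, and both SPT6-AID changes on the same side of both PAF1-AID changes), filled up with those of smallest p, up to 3 per gene list and the 2 target genes; where all blocked calls of a list are named, and for genes said to be picked, the values had been seen. Single genes that the rule took are not reported here. The genes, lists and tests were chosen with earlier results of these data known.

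Deviations of same-numbered 0 h and 2 h libraries from their group means correlated at 0.918 in SPT6-AID and 0.797 in PAF1-AID cells, so numbers were taken to pair libraries within a line. This comes from the data, not from the labels, and with 2 libraries a group each line gives 1 independent value. Libraries of a group differed by more than sampling noise (chi-square per degree of freedom 34.1 to 63.1). Alternatives were DESeq2 1.42.0 size factors and Wald test, total counts, fly totals, other filters, limma-voom (limma 3.58.1), the 8 libraries alone, the replicate block, leave-one-out fits and, for fold changes, a prior count of 2. Leave-outs that keep the genes of the full fit, and settings combined with the block, were chosen after seeing the data.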

Additional observations from a re-analysis of the deposited data

Results flagged for a closer look

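For 7 genes the test of the difference between the lines passed, that is, the effect of 2 h of auxin in SPT6-AID cells differed from that in PAF1-AID cells. The log2 differences were 4.44 for SNORD3B-2, 4.31 for SNORD3B-1, 3.56 for SNORD3A, -2.39 for ZNF551, -2.01 for ZNF597, -1.43 for ITPRIP and -1.31 for ZNF574. Groups of 2 libraries are too small to test for a single outlying library.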

How the results depend on the processing

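The number of genes past the threshold for the difference, 7, was 4 with fly totals, 34 with no filter on low counts, 57 by DESeq2's Wald test, 4 by limma-voom, 3 in the 8 libraries of 0 and 2 h alone and 240 with the replicate block, and 0 to 7 without any 1 library (0 without PAF1-AID 2h replicate 4, where 459 genes had an unadjusted p below 0.05). The higher calls were 9, 7 and 19 with no filter, DESeq2 and the block, and 0 to 3 without any 1 library. The lower calls were 2 with total counts, 1 with fly totals, 25 with no filter, 7 with a mean of at least 1 CPM, 50 by DESeq2, 1 by limma-voom, 0 in the 8 libraries (468 genes in either direction at an unadjusted p below 0.05), 221 with the block and 0 to 4 without any 1 library.

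With the block, the count of 240 (19 higher, 221 lower) was 13 (5 and 8) with fly totals, 120 (10 and 110) with total counts, 457 (58 and 399) in the 8 libraries, and 84 to 368 (7 to 27 and 76 to 343) without any 1 library. Left out were SPT6-AID 0h replicate 1 (142, of which 11 higher and 131 lower) and 2 (134, 7 and 127), SPT6-AID 2h replicate 1 (121, 8 and 113) and 2 (153, 13 and 140), SPT6-AID 6h replicate 1 (368, 25 and 343) and 2 (366, 24 and 342), PAF1-AID 0h replicate 3 (202, 11 and 191), and PAF1-AID 2h replicate 3 (140, 9 and 131) and 4 (84, 8 and 76). For SPT6-AID 2h against 0h the count of 114 was 66 with total counts, 33 with fly totals, 380 with no filter, 509 by DESeq2, 61 in the 8 libraries, 1613 with the block and 7 to 143 without any 1 library. For PAF1-AID 2h against 0h the count of 31 was 2 with fly totals, 274 with no filter, 274 by DESeq2, 11 in the 8 libraries, 1452 with the block and 0 to 37 without any 1 library. Between the lines at 0 h the count of 7 was 0 with total counts, fly totals or the 8 libraries, 317 with no filter, 87 by DESeq2 and 0 to 3 without any 1 library. At 2 h the count of 96 was 13 with fly totals, 586 with no filter, 415 by DESeq2, 52 in the 8 libraries and 3 to 99 without any 1 library. The cause of these shifts was not tested. Blocked results of the comparisons between lines are not reported here, and no replicate number is shared by the lines. Depth limits the SNORD3B-2 value, with 12 counts in SPT6-AID 0h replicate 2. The difference for PAF1 turned to 0.014 with fly totals.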
